A study of Mus musculus with 8 samples.

Results

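The chromatin of 10 T lineage genes was examined by ATAC-seq in the MPP3 and MPP4 progenitors of mouse bone marrow: Notch1, Gata3, Tcf7, Bcl11b, Runx3, Cd3d, Cd3e, Cd3g, Lck and Zap70. Accessible regions (peaks) were taken where their centre lay in one of these genes, no more than 20 kb before it or 10 kb after it, and where that gene was the closest in the GENCODE vM21 annotation of mm10. This gave 46 of 87642 peaks in MPP3 cells and 53 of 86952 peaks in MPP4 cells, on 19 autosomes. In ATAC-seq, the Tn5 transposase cuts DNA that is not covered by nucleosomes. Fragment counts thus measure how accessible a region is, and not how much RNA its gene makes.

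The 8 libraries came from 5000 sorted cells each, with 2 libraries per genotype and cell type. All mice were C57BL/6 and carried Ebf1fl/fl. The WT mice were Ebf1fl/fl Tie2Cre +/+, without Cre, and the KO mice were Ebf1fl/fl Tie2Cre +/cre, in which the Tie2 promoter drives Cre in hematopoietic and endothelial cells. The series' design text instead describes the controls as Ebf1 wild-type mice with Tie2Cre. MPP3 cells were sorted as Lin- Sca1+ Kit+ (LSK) CD150- CD48+ and MPP4 cells as LSK CD150- CD48+ Flt3+, after cells with CD3, B220, CD11b, Gr1 or Ter119 had been depleted. The labels name no Flt3 gate for MPP3 cells. Mice were 8 weeks old for both MPP3 WT libraries, 1 MPP3 KO library and both MPP4 KO libraries, and 9 weeks old for the others. They were female except for 1 MPP4 WT mouse. The level of a peak is the authors' mean log2 CPM (fragment counts scaled to all fragments in the peaks of that table) over the 4 libraries of a cell type, WT and KO together. No value per library was analysed here, so the levels carry no SD, no test was possible between cell types, and the order of neighbouring levels cannot be set against a spread. The deposited comparison of genotypes is the authors' own and was not used, so nothing below compares KO with WT cells. The tables of MPP3 and MPP4 cells were scaled separately, and a difference between them is a description of pooled values.

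T cell development starts when progenitors that reach the thymus receive Notch signals. Notch1 is the receptor, and its target Tcf7 (which encodes TCF-1) and the zinc finger factor Gata3 act early, while Bcl11b closes off other fates at commitment. Runx3 encodes a RUNX factor used in CD8 T cells and other lymphocytes. Cd3d, Cd3e and Cd3g encode the signalling chains of the T cell receptor, and Lck and Zap70 the kinases that carry its signal. MPP3 cells have a myeloid bias and MPP4 cells a lymphoid bias, and both are upstream of the thymus.

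The peaks of these 10 genes were open to very different degrees in the progenitors. Notch1 and Runx3 had 11 to 14 peaks per cell type, and the strongest of Notch1 was above 98.5% of all peaks in MPP3 and 99.6% in MPP4 cells, while Bcl11b had 3 weak peaks in each. Cd3e and Cd3g had peaks in MPP4 cells only, with a log2 CPM from 0.81 to 2.75. Of all MPP4 peaks, 23.3% overlapped no MPP3 peak. This share was 68.7% below a log2 CPM of 1, 38.2% from 1 to 2 and 13.1% from 2 to 3. Of the 37 sites found in both cell types, 29 had the higher level in MPP4 cells (78.4%, against 52.7% of all shared sites), and 24 per kb of peak. The largest difference was at an intronic site of Runx3, with an 8.59-fold higher level in MPP4 cells, or 3.4-fold per kb of peak. More cells with an open site and a site that is more open in each cell cannot be told apart in such pooled libraries.

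**Figure D1:**
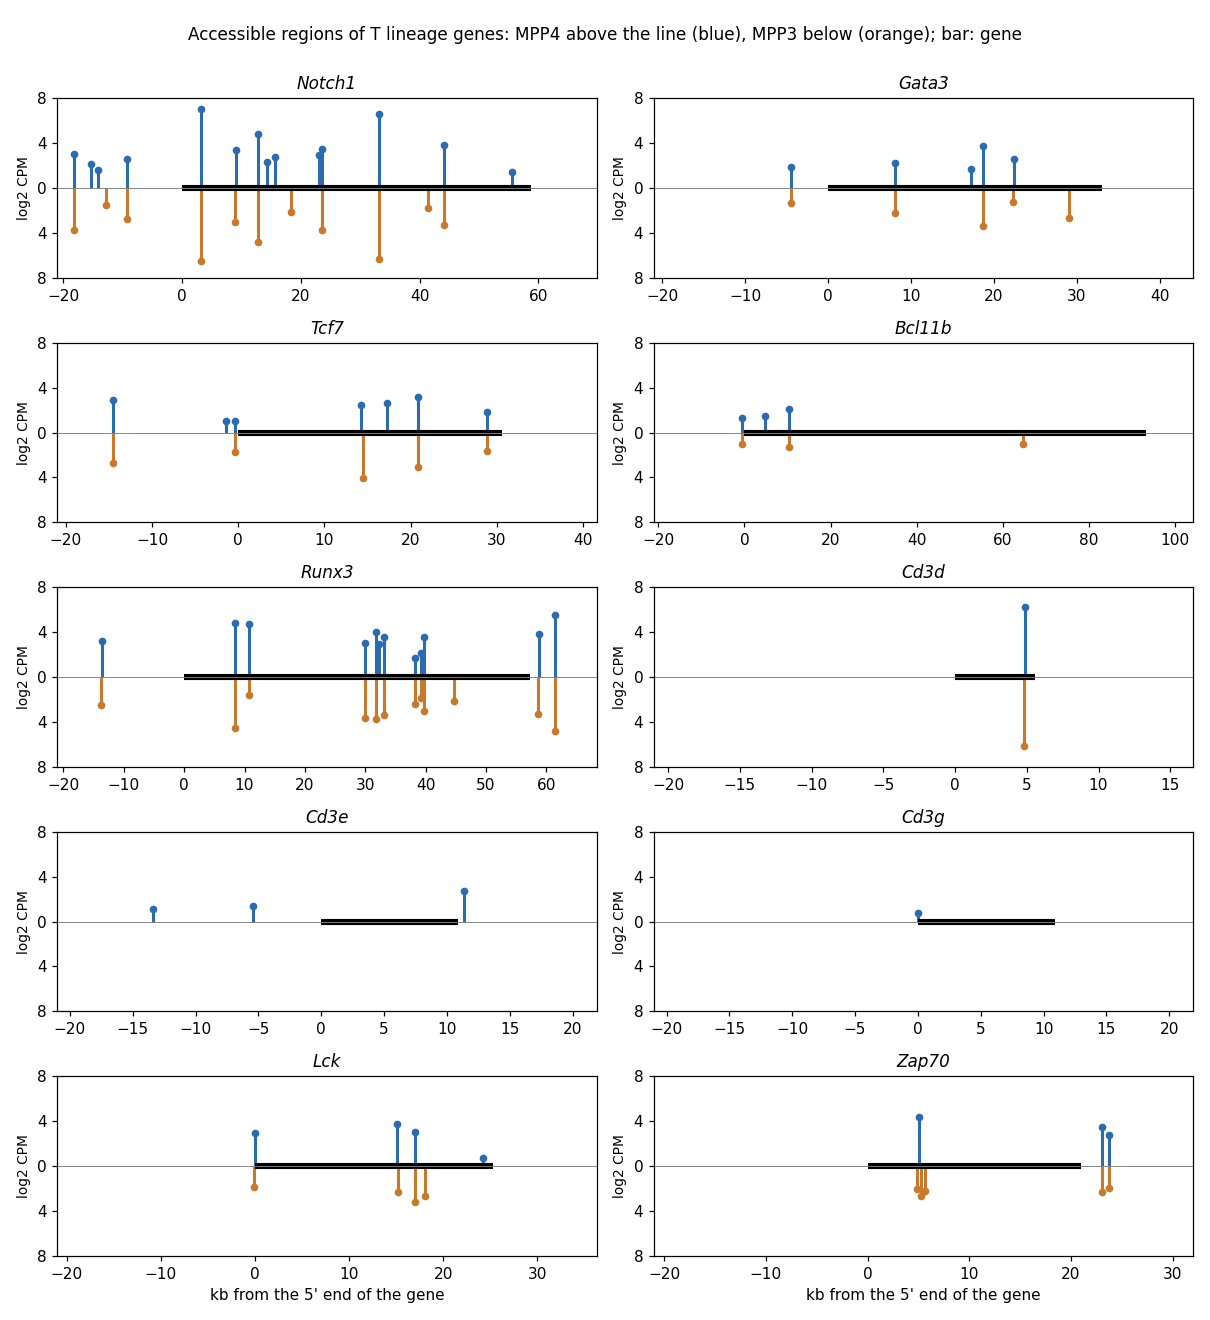
Peaks of each gene by distance from its annotated 5' end in kb (x axis, in the direction of transcription), with the mean log2 CPM of each peak (y axis) drawn upwards in blue for MPP4 cells and downwards in orange for MPP3 cells; the black bar is the gene. Notch1 and Runx3 hold the most peaks, Cd3d holds a single high peak near its 3' end, and Cd3e and Cd3g have lines in blue only.

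Sequences are shown for the sites with the largest difference in each direction (Runx3 and Tcf7 introns), the strongest peaks of Notch1 and Cd3e, and starts at Runx3, Lck and Zap70 that lay in peaks. The peaks were read from mm10. The Runx3 and Lck starts are the 250 bases before RefSeq starts in GRCm38.p6, which has the same primary chromosomes, and the Zap70 start is the 250 bases before a GENCODE transcript start, read from mm10. Capitals mark matches on either strand to RUNX letters (TGTGGT or TGCGGT), E-box letters (CAGGTG or CAGCTG) and ETS letters (GGAAGT). These are the core letters bound by RUNX factors, by E proteins and by ETS factors, all of which act in early lymphoid cells.
Runx3 intron, MPP4 peak (chr4:135131181-135131480, plus strand): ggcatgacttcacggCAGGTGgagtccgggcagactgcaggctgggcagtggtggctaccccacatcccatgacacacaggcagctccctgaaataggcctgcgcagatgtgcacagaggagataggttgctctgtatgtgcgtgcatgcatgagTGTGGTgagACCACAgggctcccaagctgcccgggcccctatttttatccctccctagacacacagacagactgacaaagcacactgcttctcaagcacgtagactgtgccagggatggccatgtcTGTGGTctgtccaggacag
Runx3 distal start (chr4:135120395-135120644, plus strand): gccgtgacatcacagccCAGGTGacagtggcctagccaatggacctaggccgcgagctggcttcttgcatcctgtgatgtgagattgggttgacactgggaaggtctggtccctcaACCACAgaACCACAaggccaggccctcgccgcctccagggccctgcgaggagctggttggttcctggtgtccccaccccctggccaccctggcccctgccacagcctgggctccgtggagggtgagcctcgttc
Notch1 intron, MPP4 peak (chr2:26513374-26513673, plus strand): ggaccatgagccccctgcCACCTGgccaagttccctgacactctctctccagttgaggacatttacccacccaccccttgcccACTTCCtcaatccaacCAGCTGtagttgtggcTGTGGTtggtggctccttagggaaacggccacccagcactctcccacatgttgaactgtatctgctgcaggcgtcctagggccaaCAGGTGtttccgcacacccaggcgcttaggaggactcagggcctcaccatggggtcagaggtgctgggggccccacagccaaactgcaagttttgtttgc
Tcf7 intron, MPP3 peak (chr11:52268417-52268716, plus strand): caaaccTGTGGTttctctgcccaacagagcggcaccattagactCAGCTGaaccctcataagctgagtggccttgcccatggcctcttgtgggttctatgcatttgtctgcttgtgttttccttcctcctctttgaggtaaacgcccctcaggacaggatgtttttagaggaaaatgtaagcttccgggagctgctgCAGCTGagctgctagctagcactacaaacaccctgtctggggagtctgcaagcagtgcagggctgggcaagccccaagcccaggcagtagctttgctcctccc
Lck distal start (chr4:129573642-129573891, minus strand): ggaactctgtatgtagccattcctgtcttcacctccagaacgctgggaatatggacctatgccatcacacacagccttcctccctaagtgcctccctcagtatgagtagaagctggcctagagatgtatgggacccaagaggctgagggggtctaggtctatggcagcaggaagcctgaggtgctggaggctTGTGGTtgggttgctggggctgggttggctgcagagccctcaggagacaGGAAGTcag
Lck proximal start (chr4:129558373-129558622, minus strand): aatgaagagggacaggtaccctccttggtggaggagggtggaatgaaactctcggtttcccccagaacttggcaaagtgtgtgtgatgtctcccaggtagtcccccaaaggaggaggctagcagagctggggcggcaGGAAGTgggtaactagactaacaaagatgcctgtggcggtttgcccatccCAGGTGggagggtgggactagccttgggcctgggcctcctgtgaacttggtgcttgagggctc
Zap70 second start (chr1:36766684-36766933, plus strand): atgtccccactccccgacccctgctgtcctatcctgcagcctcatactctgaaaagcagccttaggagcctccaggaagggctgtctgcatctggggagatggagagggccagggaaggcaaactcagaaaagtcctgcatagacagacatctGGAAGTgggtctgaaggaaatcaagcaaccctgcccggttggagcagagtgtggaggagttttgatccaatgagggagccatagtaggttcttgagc
Cd3e downstream, MPP4 peak (chr9:44998139-44998438, plus strand): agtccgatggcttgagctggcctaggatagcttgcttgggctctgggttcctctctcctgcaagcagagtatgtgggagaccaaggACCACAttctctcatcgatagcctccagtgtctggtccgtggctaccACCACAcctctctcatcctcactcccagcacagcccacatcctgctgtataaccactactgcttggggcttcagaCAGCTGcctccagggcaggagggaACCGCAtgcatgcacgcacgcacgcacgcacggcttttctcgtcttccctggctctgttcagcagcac
The Runx3 intron window holds 3 RUNX matches, 2 of them 3 bases apart, and 1 E-box match. The Runx3 distal start holds 2 RUNX matches that lie 2 bases apart, and the Cd3e window holds 3. The Notch1 window holds 3 E-box matches and the Tcf7 window 2, beside 1 RUNX match in each.

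Notch1, the receptor that starts T lineage specification, had 11 peaks in MPP3 and 14 in MPP4 cells, more than 95.9% and 97.6% of protein-coding genes. Its most accessible peak was not at the RefSeq start but upstream of it, at -9.7 kb, in an intron of a longer transcript (chr2:26513231-26513813). That site had a log2 CPM of 6.48 in MPP3 and 7.08 in MPP4 cells. A second site inside the gene, 20.28 kb downstream of the RefSeq start (chr2:26483160-26483924), reached 6.31 and 6.61. It is also the member region with 2 matches to the EBF letters (TCCCNNGGG or CCCNNGGGA) and with 1 match to the RBPJ letters (GTGGGAA), the letters bound by the nuclear partner of Notch. The peak over the RefSeq start itself had nearly the same level in both cell types, 4.79 in MPP3 and 4.81 in MPP4 cells. Over its 8 shared sites, Notch1 differed by between -0.76 and 0.60 on the log2 scale (MPP4 minus MPP3), so no site passed a difference of 1. In addition 6 sites had a peak in MPP4 cells only and 3 in MPP3 cells only, all with a log2 CPM below 3. Among all peaks, 23.3% in MPP4 and 24.3% in MPP3 cells overlapped none of the other cell type.

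Gata3, a zinc finger factor needed for early T cells, had 5 peaks in each cell type. The RefSeq start of Gata3 lay in no peak in either table. Its most accessible peak was intronic, 7.26 kb downstream of that start (chr2:9871117-9871559), with a log2 CPM of 3.36 in MPP3 and 3.76 in MPP4 cells. A further intronic site, 10.92 kb downstream of the start (chr2:9867545-9867816), had 1.21 in MPP3 and 2.58 in MPP4 cells, a 2.58-fold higher level in MPP4 cells. At the intronic site from 9860773 to 9861304 a peak with a log2 CPM of 2.64 was listed in MPP3 cells and none in MPP4 cells. A peak within 1 kb of the 5'-most Gata3 transcript start, at 2.61 in MPP3 and 2.66 in MPP4 cells, was closer to the neighbouring gene 9230102O04Rik and is not among the 5. At another intronic site (chr2:9872781-9872970), within 1 kb of the start of a Gata3 transcript, a peak of 1.72 was listed in MPP4 cells only. Gata3 therefore had 4 shared sites, 1 listed only in MPP3 and 1 only in MPP4 cells.

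Tcf7, the Notch target that encodes TCF-1, had 5 peaks in MPP3 and 7 in MPP4 cells, and gave the only difference of 1 or more towards MPP3 cells. Its intronic site at chr11:52268260-52268897, which also overlaps an exon of the non-coding gene Gm26551, had a log2 CPM of 4.01 in MPP3 cells and 2.49 in MPP4 cells. The MPP4 level was 0.349 times the MPP3 level. The MPP3 peak there covers 614 bp with 4 E-box matches and the MPP4 peak 325 bp with 2. The peak nearest the Tcf7 start was weak in both cell types, at 1.69 in MPP3 and 0.99 in MPP4 cells. The most accessible Tcf7 peak of MPP4 cells lay at another intronic site (chr11:52262011-52262342), with 3.11 in MPP3 and 3.19 in MPP4 cells. An upstream site (chr11:52297404-52297674) had 2.71 and 2.91. At the Tcf7 sites shared by both cell types other than the first of these introns, the MPP4 minus MPP3 difference lay between -0.70 and 0.25.

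Bcl11b, the factor of T cell commitment, was the least accessible of the genes with a peak in both tables by its strongest peak. Its 3 peaks lay between 1.00 and 1.29 log2 CPM in MPP3 cells and between 1.31 and 2.11 in MPP4 cells, below the median of all peaks (2.24 and 2.35). The strongest, intronic at chr12:107993090-107993576, had 3.47 log2 CPM per kb of peak in MPP3 and 3.15 in MPP4 cells, so that its higher CPM in MPP4 cells was not higher per kb. The peak upstream of the start had a log2 CPM of 1.00 and 1.31, above 1.11% and 3.6% of the start peaks of protein-coding genes. Bcl11b was thus listed as open in both progenitors, but only weakly.

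Runx3 had 12 peaks in each cell type and the most accessible start of the 10 genes. The gene has a distal and a proximal start, and both lay in peaks. The peak over the distal start had a log2 CPM of 6.87 in MPP3 and 6.99 in MPP4 cells, above 94.8% and 97.6% of the start peaks of protein-coding genes. It was closer to the non-coding gene Gm16225, which is transcribed away from the same place, and is not among the 12. The peak over the proximal start was lower, at 3.72 in MPP3 and 4.05 in MPP4 cells. Neither start differed by 1 or more on the log2 scale between MPP3 and MPP4 cells.

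The largest difference of any member was in the intron between the Runx3 starts, 10.68 kb downstream of the distal start (chr4:135131117-135131543). The site had a log2 CPM of 1.63 in MPP3 cells (169 bp of peak) and 4.73 in MPP4 cells (427 bp of peak). The difference of 3.10 was exceeded by 2 of the 65829 shared sites of the genome. On the scale of log2 CPM per kb of peak the levels were 4.19 and 5.96, and the difference 1.76. A neighbouring intronic site (chr4:135128803-135129238) was high in both, at 4.52 in MPP3 and 4.82 in MPP4 cells. The most accessible of the 12 peaks lay downstream of the gene (chr4:135181769-135182290), at 4.81 and 5.54. Over its 11 shared sites, Runx3 was higher in MPP4 cells at 9 and lower at 2, the lowest difference being -0.74. Per kb of peak it was higher at 8 and lower at 3.

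Cd3d, Cd3e and Cd3g lie next to each other on chromosome 9 and encode the CD3 chains. No peak overlapped the RefSeq start of Cd3d or of Cd3e in either cell type. Cd3d nevertheless had 1 highly accessible peak in both tables, over the untranslated part of its last exon (chr9:44986312-44986880), 4.81 kb downstream of its start, with a log2 CPM of 6.14 in MPP3 and 6.27 in MPP4 cells, above 97.5% and 98.2% of all peaks. Short transcripts of Cd3d that are annotated from starts within 1 kb of this peak make it a start peak by the definition used here, though it is far from the main start.

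Cd3e and Cd3g had no peak in MPP3 cells. In MPP4 cells Cd3e had 3, of which the strongest lay just downstream of the gene (chr9:44998130-44998447) with a log2 CPM of 2.75, above 59.3% of all MPP4 peaks. The others lay upstream at 1.40 and 1.14. Cd3g had 1 MPP4 peak over its start (chr9:44980368-44980562), with a log2 CPM of 0.81, above 7.39% of all peaks. A site that is not listed has no value, so no fold was computed for these sites. Of all MPP4 peaks, 23.3% overlapped no MPP3 peak.

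Lck, the kinase that acts first at the T cell receptor, also has a distal and a proximal start. Both lay in or directly beside peaks that were higher in MPP4 cells. In MPP3 cells the distal peak (chr4:129573645-129573799) lay just upstream of the start base at 129573641. The distal start (chr4:129573533-129573817) had a log2 CPM of 1.83 in MPP3 and 2.99 in MPP4 cells, a 2.23-fold higher level in MPP4 cells. The proximal start (chr4:129558252-129558868) had 2.27 and 3.76, a 2.82-fold higher level in MPP4 cells. The peaks were also longer in MPP4 cells, 285 against 155 bp and 617 against 324 bp, and per kb of peak the differences were 0.28 and 0.57. Another site, 1.72 kb downstream of the proximal start, had 3.22 in MPP3 and 3.07 in MPP4 cells, and per kb of peak a difference of 0.17 towards MPP4 cells. A peak at chr4:129555399-129555639, within 1 kb of the start of an Lck transcript, was listed in MPP3 cells only, at 2.68.

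Zap70, the kinase recruited to the phosphorylated receptor chains, showed the same direction at all of its 3 shared sites. None of its 3 RefSeq starts lay in a peak. A site over the start of a second GENCODE transcript (chr1:36766484-36767194) held 2 short MPP3 peaks with a summed log2 CPM of 3.39 and 1 long MPP4 peak with 4.38, a difference of 0.99. Downstream of the gene, the site at chr1:36784683-36785060 had 2.29 in MPP3 and 3.48 in MPP4 cells, a 2.28-fold higher level in MPP4 cells. The site at chr1:36785404-36785604 had 1.99 and 2.75. Another site, from 36767303 to 36767535, was listed in MPP3 cells only, at 2.22.

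**Figure D2:**
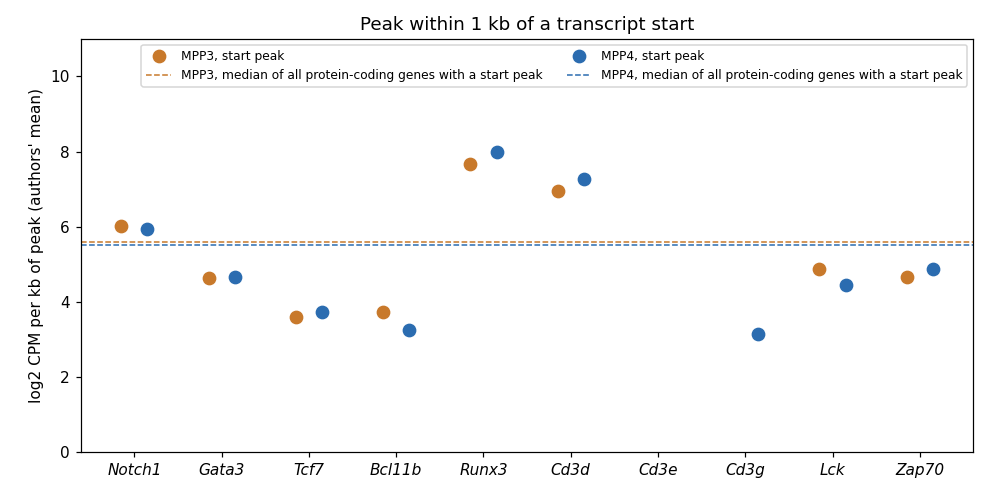
Level of the peak within 1 kb of a transcript start for each gene (x axis) in log2 CPM per kb of peak (y axis), orange for MPP3 and blue for MPP4 cells, with the median over all protein-coding genes that have a start peak as dashed lines. Runx3, Cd3d and Notch1 lie above the medians, the other genes below, and Cd3e has no point. The peak with the highest log2 CPM was taken where there were several, so the Lck points of MPP3 and MPP4 cells come from different sites.

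Ordered by the level of the start peak per kb of peak, Runx3 came first (7.67 log2 CPM per kb in MPP3 and 7.99 in MPP4 cells), followed by Cd3d (6.96 and 7.27) and Notch1 (6.02 and 5.95). These 3 lay above the median of all protein-coding genes with a start peak, 5.59 in MPP3 and 5.52 in MPP4 cells. Zap70, Lck and Gata3 lay between 4.46 and 4.89 in both cell types. Where a gene had several start peaks, the one with the highest log2 CPM was taken. For Lck this was the peak 1.72 kb downstream of the proximal start in MPP3 cells, and the proximal start peak in MPP4 cells. Compared at the same site, Lck had 3.89 in MPP3 and 4.46 in MPP4 cells at the proximal start. At the site 1.72 kb downstream it had 4.89 and 5.06. Tcf7 and Bcl11b lay between 3.26 and 3.73, and Cd3g, with 3.16 in MPP4 cells, was last. A start peak was present for 8 of the 10 genes in MPP3 and 9 in MPP4 cells, where 64.0% and 63.8% of protein-coding genes had one. The 10 genes have 15 RefSeq promoters (250 bases before and 50 bases after a start). Of these, 5 overlapped a peak in MPP3 cells and 6 in MPP4 cells, against 42.8% and 42.3% of all RefSeq promoters on the autosomes.

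**Figure D3:**
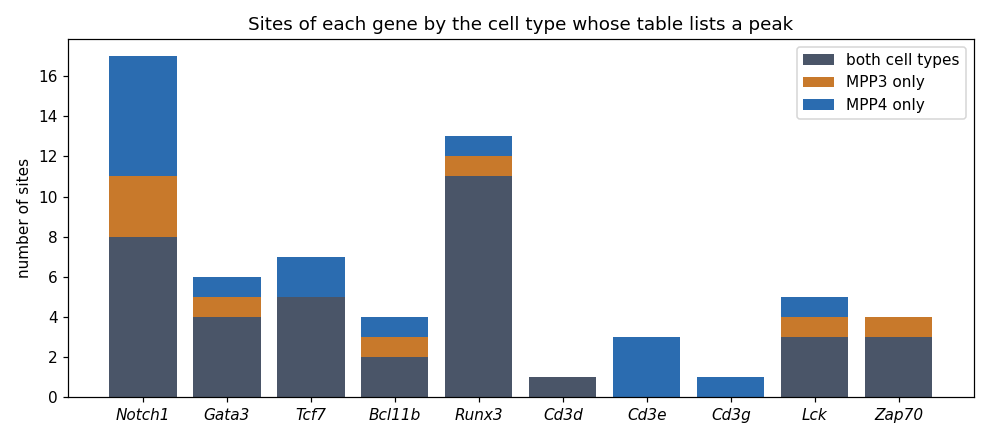
Number of sites of each gene (y axis), where a site is a group of overlapping peaks of the tables, in grey for sites with a peak in both cell types, orange for MPP3 only and blue for MPP4 only. Of 61 sites, 37 were in both, 8 in MPP3 only and 16 in MPP4 only. Of all 107424 sites, 65829 were in both, 21318 in MPP3 only and 20277 in MPP4 only.

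Peaks of the tables that overlapped by at least 1 bp were joined into sites, which gave 61 for the 10 genes. In MPP3 cells, 8 of the 46 member peaks overlapped no MPP4 peak, where 24.3% of all MPP3 peaks did not. In MPP4 cells, 16 of the 53 overlapped no MPP3 peak, where 23.3% of all MPP4 peaks did not. The shares of shared member peaks were 82.6% in MPP3 (95% Wilson interval 69.3 to 90.9) and 69.8% in MPP4 cells (56.5 to 80.5), intervals that cover counting error only and that include the shares of all peaks. All 24 unshared member peaks had a log2 CPM below 3. Between a log2 CPM of 2 and 3, 5 of 14 member peaks were unshared in MPP3 and 7 of 16 in MPP4 cells, where 13.1% of the peaks of each table were. Between 1 and 2, 3 of 13 and 6 of 10 member peaks were unshared, where 37.1% and 38.2% of all peaks were. The sites in 1 cell type only include all 4 of Cd3e and Cd3g, 6 of Notch1 in MPP4 cells and 3 of Notch1 in MPP3 cells.

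**Figure D4:**
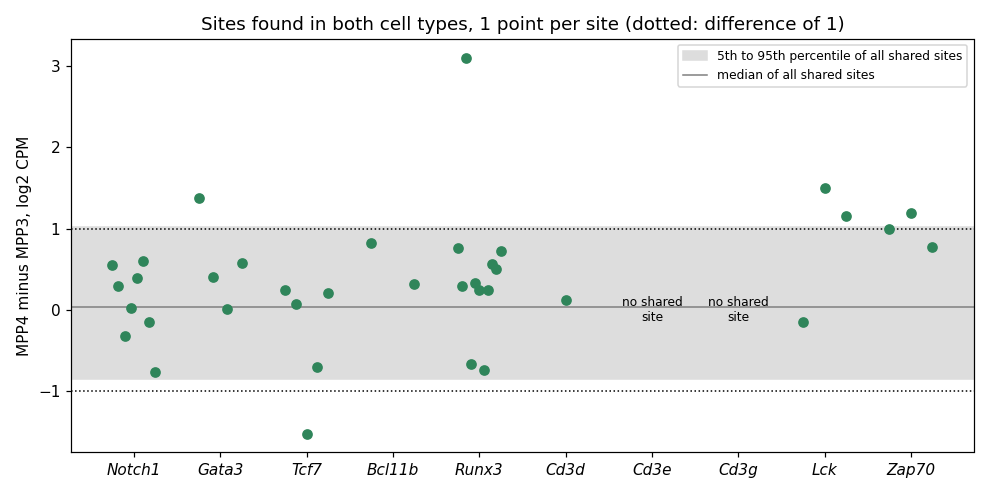
MPP4 minus MPP3 level in log2 CPM (y axis) at each site found in both cell types, by gene (x axis, 1 point per site), with the 5th to 95th percentile of all shared sites in grey and dotted lines at a difference of 1. The Runx3 point at 3.10 stands far above all others, and the lowest point is the Tcf7 site at -1.52.

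At the 37 shared sites, the median MPP4 minus MPP3 difference was 0.32 on the log2 scale, and 0.03 over all 65829 shared sites. The level was higher in MPP4 cells at 29 of 37 sites (78.4%), where this held for 52.7% of all shared sites. Per kb of peak, 24 of 37 sites and 48.4% of all sites were higher in MPP4 cells. A difference of at least 1 towards MPP4 cells was found at 5 of 37 sites, where 5.32% of all shared sites passed it. These were the Runx3 intron, the Gata3 intron, both Lck starts and the site downstream of Zap70. A difference of at least 1 towards MPP3 cells was found at 1 site, in the Tcf7 intron, where 3.43% of all sites passed it. Per kb of peak, the Runx3 site alone still differed by 1 or more, where 1.57% of all sites did so towards MPP4 cells, and the Tcf7 difference was -0.60. Peak calls were longer in the cell type with the higher level at all 6 sites, and the part of peak length in these differences cannot be told apart from accessibility in these tables.

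The letters bound by factors of early lymphoid cells were counted in the peaks of the 10 genes and in all peaks of the same table. RUNX letters were found in 14 of 46 MPP3 peaks (30.4%, against 36.4% of all MPP3 peaks) and in 17 of 53 MPP4 peaks (32.1%, against 38.6%). E-box letters were in 22 MPP3 peaks (47.8%, against 38.7%) and in 25 MPP4 peaks (47.2%, against 40.0%). ETS letters were in 19 MPP3 peaks (41.3%, against 36.3%) and 23 MPP4 peaks (43.4%, against 39.4%). With so few member peaks, the 95% Wilson interval of each of these shares holds the share of all peaks, for E-box letters in MPP3 cells from 34.1 to 61.9%. The intervals cover counting error only and treat the peaks as independent, though Notch1 alone had 11 in MPP3 and 14 in MPP4 cells. The values of the 2 cell types are not independent either, since 38 of the 46 MPP3 peaks overlapped an MPP4 peak. The letters for GATA factors (AGATAA or TGATAA) were in 4 MPP3 peaks (8.7%, against 18.2%) and 6 MPP4 peaks (11.3%, against 16.4%). TCF/LEF letters (CTTTGAA or CTTTGAT) were in 2 MPP3 peaks (4.35%, against 7.51%) and 3 MPP4 peaks (5.66%, against 8.04%). RBPJ letters were in 4 (8.7%, against 6.79%) and 6 (11.3%, against 7.01%), and Ikaros letters (TGGGAA, contained in the RBPJ letters) in 10 (21.7%, against 22.9%) and 15 (28.3%, against 23.2%). EBF letters were in 2 peaks of each table, both in Notch1 (4.35% against 7.46% and 3.77% against 6.49%). These intervals, too, hold the share of all peaks, for GATA letters in MPP3 cells from 3.43 to 20.3%. The 300-base RefSeq promoters gave 15 windows for the 10 genes, some genes with several. E-box letters were in 11 of them and in 32.9% of all promoters. RUNX letters were in 3 windows, of Runx3, Lck and Zap70, and in 22.4% of all promoters. ETS letters were in 7 (23.8% of all promoters), Ikaros letters in 5 (25.6%) and TCF/LEF letters in 2 (8.65%). RBPJ letters were in 2 (6.38%), GATA letters in 1 (18.6%) and EBF letters in none (6.56%). No interval was computed for these few windows, and the differences were not tested.

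Other genes of the T lineage were read in the same way. Of the further receptor genes Cd247, Cd4, Cd8a, Cd8b1 and Ptcra, 3 had a start peak in MPP3 and 2 in MPP4 cells, the highest at Cd247 (2.78 and 2.77 log2 CPM). Cd8a had no peak in either table, and Cd8b1 none in MPP4 cells. Over the 7 shared sites of these genes the median difference was 0.07 and 57.1% were higher in MPP4 cells, with 1 site past a difference of 1 in each direction. Of 11 genes of T cell receptor signalling, 10 had a start peak in each cell type, all but Themis. The highest was that of Fyn, a kinase that is also used outside T cells, at 6.18 in MPP3 and 6.19 in MPP4 cells. Over their 68 shared sites the median difference was 0.31, and 69.1% were higher in MPP4 cells, against 52.7% of all shared sites. Of these 68 sites, 8 passed a difference of 1 towards MPP4 cells and 4 towards MPP3 cells, where 5.32% and 3.43% of all sites did. Of 10 further regulators, the highest start peak was at Zbtb7b in MPP3 cells (5.93) and at Runx1 in MPP4 cells (5.83). Over their 76 shared sites the median difference was 0.11, 53.9% were higher in MPP4 cells, and 8 passed a difference of 1 towards MPP4 and 5 towards MPP3 cells. Of 11 further genes of the Notch pathway, 10 had a start peak in each table, all but the receptor gene Notch3, the highest at Adam10 in MPP3 cells (6.49) and at Maml1 in MPP4 cells (5.83). Over their 50 shared sites the median difference was 0.04, 56.0% were higher in MPP4 cells, and 2 passed a difference of 1 towards MPP4 and 1 towards MPP3 cells. Ncstn had a start peak in both tables, but in MPP4 cells the closest gene of that peak was another, so no MPP4 peak was assigned to it.

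For comparison, the median difference was 0.09 over the 33 shared sites of 6 B cell receptor genes and 0.00 over the 26 of 7 myeloid transcription factors. Of these sites, 57.6% and 50.0% were higher in MPP4 cells, against 52.7% of all shared sites. Over the 17 shared sites of the sort marker genes Kit, Ly6a, Cd48, Flt3 and Slamf1, the median was 0.18 and 70.6% were higher in MPP4 cells. Of the 33 B cell receptor sites, 1 was higher by at least 1 in MPP4 cells and 2 were in MPP3 cells. Of the 26 myeloid sites, none was higher by at least 1 in MPP4 cells and 3 were in MPP3 cells. Over all shared sites, 5.32% passed this mark towards MPP4 and 3.43% towards MPP3 cells. Of the genes that the sort selects on, Flt3, the marker of MPP4 cells, had a start peak of 5.92 log2 CPM in MPP3 and 7.01 in MPP4 cells. That of Kit had 5.54 and 5.63. The start peak of Cd48 was weaker, at 2.77 in MPP3 and 2.3 in MPP4 cells. Ly6a, which encodes Sca1, had no start peak in MPP3 cells and a weak start peak of 1.15 in MPP4 cells. Of the genes for cells that the sort removes, Cd3e and Ly6g had no start peak in either table, and the start peaks of Ptprc and Itgam had log2 CPM values from 2.85 to 3.79. Of the CD3 genes, Cd3d and Cd3e had no peak over their main starts in these cells. Cd3g had a weak peak of 0.81 over its start in MPP4 cells only. Both Lck starts lay in peaks in MPP4 cells. In MPP3 cells the proximal Lck start did, and the distal one lay directly beside a peak. The part of any mature T cells left in the sort was not tested.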

How the data were processed

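ATAC-seq libraries (8, with 2 per genotype and cell type) had been made from sorted MPP3 and MPP4 cells. Per the methods and the submitters' processing notes, adapters were trimmed with cutadapt 2.10, reads were mapped to mm10, fragments longer than 150 bp were removed with deepTools, and MACS2 2.2.7.1 called peaks on the merged replicates of each condition. Peaks of both genotypes were merged within a cell type, and the fragments counted over them were fitted with edgeR 3.32.0 in R 4.0.3. The authors deposited 1 table per cell type. Only the position and the mean log2 CPM of each peak were used. The log2 fold change, F, p-value and FDR that the tables also hold are the authors' comparison of KO with WT cells and were not read. Only short fragments from nucleosome-free DNA enter the values, and library depths were not analysed here.

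Each peak went to the closest GENCODE vM21 transcript, by the distance of its centre to the transcript's start, centre or end. A start peak had its centre within 1 kb of a transcript start of the gene. The level of a site is the log2 of the summed CPM of its peaks. A difference of 1 on the log2 scale between cell types was used as a mark, with no test. Letters of motifs were searched on both strands of the peak sequence. The genes named are the 10 members with their start peaks, strongest peaks and sites past a difference of 1, and in the other lists the gene with the highest start peak and those without a peak. Further sites, Flt3, Kit, Cd48, Ly6a and some lineage genes are named beside them. The values of some listed genes are not reported here. The members and lists were chosen with earlier results of these data known. The steps were checked on simulated peaks. Alternatives were other windows, start and overlap definitions, scalings, filters and motif windows. Python 3.11.15, pandas 2.3.3, numpy 2.4.6, scipy 1.17.1 and matplotlib 3.10.9 were used.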

Additional observations from a re-analysis of the deposited data

How the results depend on the processing

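The tables hold 1 pooled value per peak, so leaving out each replicate was not run and no error between mice can be given. No paired analysis was possible because the tables carry no value per library and no result comes from a test. None of the 6 differences of at least 1 changed its sign under an alternative. Over all 37 shared sites, the sign changed at 9 per kb of peak (both Bcl11b sites, 2 each of Notch1 and Tcf7, and 1 each of Gata3, Runx3 and Lck, with reported differences up to 0.82), at 2 when centred on the median of all sites and at 3 when centred within bins of GC content and level. The level per kb of peak moved the median difference of the shared sites from 0.32 to 0.21 (over all sites from 0.03 to -0.02), the count of sites higher in MPP4 cells from 29 to 24, the count of sites higher by at least 1 in MPP4 cells from 5 to 1, and that in MPP3 cells from 1 to 0. With a start window of 500 bp, 5 in place of 8 genes had a start peak in MPP3 cells, and 6 in place of 9 in MPP4 cells. The share of all protein-coding genes with a start peak in this narrower window is not given, so these counts cannot be set against it. Away from transcript starts, the share of MPP3 peaks with TCF/LEF letters was 0% in place of 4.35%. The other values for the counts, shares and medians kept within their interval, within 1.5 times the count or within 0.1 of the median, under windows of 5 kb, protein-coding genes only, a log2 CPM of at least 1, 50% overlap, centring on the median of all sites or within bins of GC content and level, and pairs of largest overlap. With the last of these 7 of 38 pairs were higher by at least 1 in MPP4 cells, where 6.05% of all pairs were. The sites listed in 1 cell type all had a log2 CPM below 3.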
